A study of Mus musculus with 12 samples.

Results

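The comparison described here is the effect of genotype in RNA sequencing libraries of mouse osteoclast cultures, LysM-cKO against wild type (WT), in the cultures titled R40D3. It uses 4 of the 12 libraries of the series, 2 WT and 2 LysM-cKO, chosen by genotype, title and replicate number, and same-numbered libraries are treated as a pair. The WT mice carry no named allele in the labels. In the LysM-cKO mice Impdh2 was deleted in the myeloid lineage, and LysM names the gene whose promoter drives the Cre recombinase. The sources used here do not say whether the WT mice carried Cre or floxed alleles, or give age, sex or strain. Marrow cells of both genotypes spent 3 days in medium with L929 supernatant (a source of M-CSF, the macrophage growth factor, at an equivalent of 20 ng/ml). They were then seeded again and given RANKL, the cytokine that drives osteoclast formation, at 40 ng/ml per the protocol. R40D3 and R0D3 are used as names, since the labels do not spell them out and give all culture samples the same treatment. Total counts per R40D3 library ran from 16009146 to 19221865. The 4 R0D3 libraries (2 WT, 2 LysM-cKO) have the same genotypes. They enter the same model, so they bear on the spread and the replicate term behind each R40D3 p-value, and they give the comparison between cultures. Nothing in the labels says that the replicates came from separate mice, so the p-values measure the spread between these samples, which may be technical.

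IMPDH2 is an enzyme that converts inosine monophosphate to xanthosine monophosphate, the rate-limiting step of guanine nucleotide synthesis, and IMPDH1 is its isozyme. Osteoclasts are bone-resorbing cells that form when macrophage precursors respond to RANKL through the receptor RANK. The transcription factors Fos and Nfatc1 act downstream of RANK, receptors coupled to ITAM adaptors such as Oscar give a second signal, and precursors then fuse and make the acid and proteases that dissolve bone.

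Impdh2 has a processed pseudogene, Impdh2-ps, whose sequence decides how its reads can be counted. Impdh2 (ENSMUSG00000062867) lies on the plus strand of chromosome 9, 108560286 to 108565584 in GRCm38, and Impdh2-ps (ENSMUSG00000071041) on the plus strand of chromosome 8, 100030558 to 100032102. The pseudogene transcript matched the spliced Impdh2-201 transcript at 1541 of 1545 bases (99.7%), and all 4 mismatches lay in the coding part of Impdh2. The 90-base stretch below, bases 1089 to 1178 of Impdh2-201 and 841 to 930 of the pseudogene in GENCODE M21, is shown because it holds 2 of those 4 mismatches, which are in capitals.
Impdh2: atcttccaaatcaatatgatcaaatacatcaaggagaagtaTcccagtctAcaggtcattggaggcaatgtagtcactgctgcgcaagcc
Impdh2-ps: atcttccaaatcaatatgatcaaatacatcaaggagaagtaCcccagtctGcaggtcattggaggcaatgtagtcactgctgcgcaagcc
A short read that spans none of these mismatches fits both genes, so the counts of both are uncertain.

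The targeted gene was lower in both LysM-cKO libraries. Levels are given in CPM, the count of a gene relative to the TMM-scaled total of its library, in the order WT replicates 1 and 2, then LysM-cKO replicates 1 and 2. Impdh2 had 25.7 and 27.7 CPM in the WT libraries and 7.72 and 8.38 CPM in the LysM-cKO libraries. The groups did not overlap, and the log2 fold change was −1.73 (SE 0.13, edgeR quasi-likelihood adjusted p 0.00283). Impdh2-ps had 18.04 and 18.995 CPM in the WT libraries and 4.18 and 5.48 CPM in the LysM-cKO libraries, and it fell with a log2 change of −1.95 (SE 0.15, edgeR adjusted p 0.00283). At R0D3 Impdh2 had 22.3 and 28.2 CPM in the WT libraries and 7.36 and 7.03 CPM in the LysM-cKO libraries, so the difference was close in size in both kinds of culture. Which exons were floxed is not given in the sources used here, so a gene-level count cannot show what the remaining transcripts encode. The fall of Impdh2 did not pass without WT replicate 1 (edgeR adjusted p 0.0737) or without LysM-cKO replicate 1 (edgeR adjusted p 0.106), while its log2 fold change stayed between −1.75 and −1.70 whichever of the 4 libraries was left out.

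Impdh1 did not differ detectably between the genotypes. It had 31.0 and 31.3 CPM in the WT libraries and 29.6 and 31.6 CPM in the LysM-cKO libraries. The groups overlapped, and the log2 fold change was −0.02 (SE 0.10, edgeR adjusted p 0.922).

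Of 14030 genes tested, 30 passed at an adjusted p under 0.05 (0.214% of all genes tested). Of these, 17 were higher in LysM-cKO (0.121%) and 13 lower (0.0927%). The 30 lay on 16 chromosomes, and 27 were protein coding. In 29 of them both pairs moved the same way, and in 28 the 2 groups did not overlap, against 38.7% of all genes tested. The test that chose these genes used the same libraries and favours both traits, so neither is separate support. The count rests on the pairing: without the replicate block 2 genes passed, Impdh2 and Impdh2-ps (0.0143%). It also rests on single libraries, since 2 genes passed without WT replicate 1, 1 without LysM-cKO replicate 1, 11 without LysM-cKO replicate 2 and 20 without WT replicate 2. Just inside the threshold lay Havcr2 and Ckap4 (adjusted p 0.0429 and 0.0476), and just outside it Siglec15 and Chchd10 (adjusted p 0.0512 and 0.0519).

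**Figure D1:**
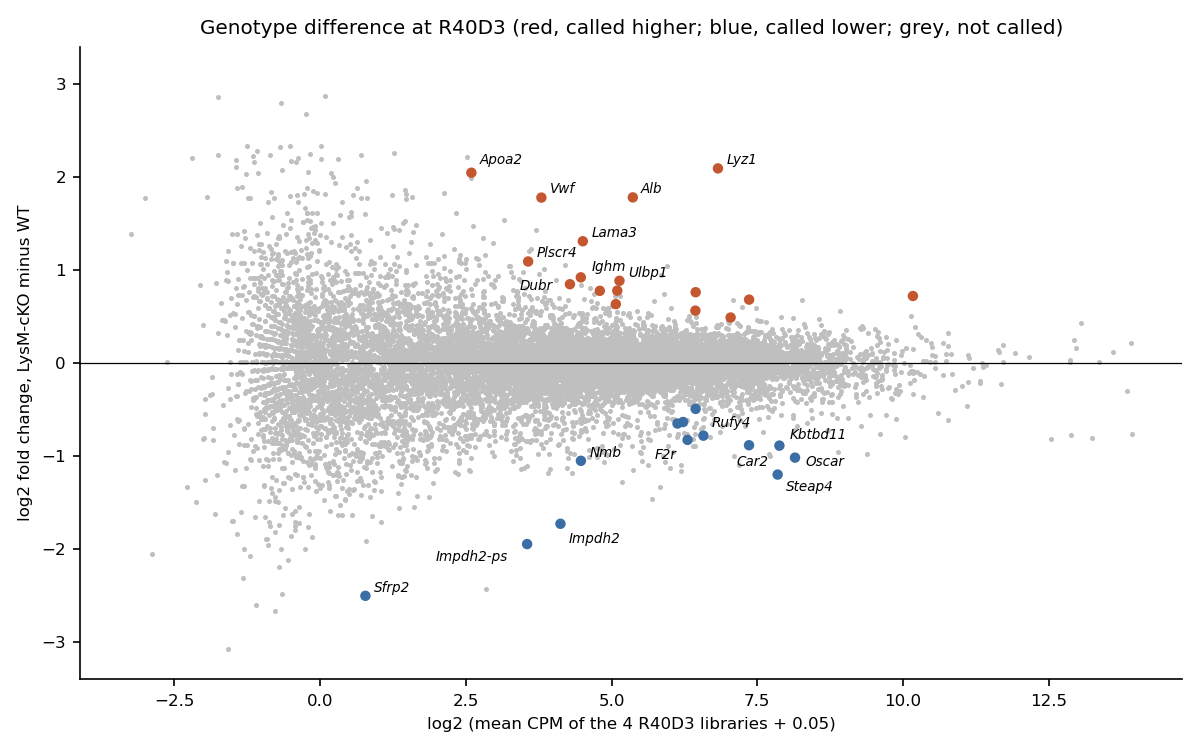
Genotype difference of all genes tested at R40D3. The x axis is the log2 of the mean CPM of the 4 libraries plus 0.05, the y axis the log2 fold change (LysM-cKO minus WT). The 17 genes called higher are red, the 13 called lower blue and the others grey, and called genes beyond 0.78 in either direction are named. The y axis ends at 3.4 in each direction, with 1 point outside. Impdh2 lies at −1.73 and Impdh2-ps at −1.95.

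The gene with the smallest p was Lyz1, which encodes P lysozyme, an antibacterial enzyme. Lyz1 had 53.9 and 33.5 CPM in the WT libraries and 193 and 173 CPM in the LysM-cKO libraries. Both LysM-cKO libraries lay above both WT libraries, and Lyz1 rose with a log2 change of 2.09 (SE 0.12, edgeR adjusted p 0.000801). Its neighbour Lyz2 encodes M lysozyme, the gene into which the LysM-Cre allele is commonly inserted. Lyz2 had 18949 and 20334 CPM in the WT libraries and 11773 and 11302 CPM in the LysM-cKO libraries. Its log2 change of −0.76 (SE 0.20) did not pass in edgeR (edgeR adjusted p 0.126), while DESeq2 and limma-voom called Lyz2 lower. The genes lie 5475 bases apart on the minus strand of chromosome 10, Lyz1 from 117287797 to 117292868 and Lyz2 from 117277331 to 117282321 in GRCm38. Lyz1 was higher and Lyz2 lower in both LysM-cKO libraries at R0D3 as well, Lyz1 at 27.3 and 19.9 CPM in WT against 89.5 and 74.2 CPM. The Cre allele and the loss of Impdh2 cannot be told apart here as sources of these differences. Within 5 Mb of Lyz2, 1 of 42 genes tested was called, which is Lyz1 itself, and 11.9% had an unadjusted p under 0.05, against 18.5% of all genes tested. Around Impdh2, in a window of the same size, 0 of 122 neighbours were called by edgeR, and 22 had an unadjusted p under 0.05 (18%). DESeq2 called 2 of the 122 and limma-voom 1, and neither count is read as a signal at the locus. For these and all later list counts, the DESeq2 and limma-voom totals over all genes are given under the dependence on processing.

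Most genes that fell were at a low level at R0D3. Of the 13, 9 were at no more than 2.05 CPM in each of the 4 R0D3 libraries, among them the osteoclast markers Oscar and Car2. In bulk libraries, fewer osteoclasts and less RNA of these genes per osteoclast cannot be told apart.

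Oscar, the osteoclast-associated receptor that signals through an ITAM adaptor, had 284 and 463 CPM in the WT libraries and 119 and 268 CPM in the LysM-cKO libraries. Each pair fell and the groups did not overlap, although LysM-cKO replicate 2 came close to WT replicate 1. The log2 fold change was −1.02 (SE 0.10, edgeR adjusted p 0.00283), with within-pair differences of −1.25 and −0.78. Steap4, a metalloreductase for iron and copper, had 261 and 374 CPM in the WT libraries and 94.7 and 194 CPM in the LysM-cKO libraries, and it fell with a log2 change of −1.20 (SE 0.13, edgeR adjusted p 0.00818), though it was not called by DESeq2. Kbtbd11, a protein with BTB and kelch domains, had 259 and 350 CPM in the WT libraries and 129 and 204 CPM in the LysM-cKO libraries. It fell with a log2 change of −0.89 (SE 0.08, edgeR adjusted p 0.00506), and its exons overlap those of another gene. In these 3 genes replicate 2 was higher than replicate 1 in both genotypes, a shift that the pairing removes.

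Car2, the carbonic anhydrase that supplies protons for acid secretion, had 181 and 240 CPM in the WT libraries and 82.4 and 154 CPM in the LysM-cKO libraries. It fell with a log2 change of −0.88 (SE 0.12, edgeR adjusted p 0.0236), and its groups did not overlap. The thrombin receptor F2r was at 87.4 and 113 CPM against 43.4 and 72.0 CPM (log2 fold change −0.83, SE 0.10, edgeR adjusted p 0.0247). It was low at R0D3, with no library above 2.05 CPM. Rufy4, an adaptor with RUN and FYVE domains that acts on autophagosomes and lysosomes, had 100 and 139 CPM in the WT libraries and 53.5 and 88.2 CPM in the LysM-cKO libraries (log2 fold change −0.78, SE 0.08, edgeR adjusted p 0.00818). The neuropeptide gene Nmb was at 25.3 and 34.2 CPM against 10.9 and 18.3 CPM (log2 fold change −1.05, edgeR adjusted p 0.0247). The sialyltransferase gene St8sia6 was at 78.9 and 102 CPM against 47.1 and 71.1 CPM (log2 fold change −0.63, edgeR adjusted p 0.0247). For each of these genes both LysM-cKO libraries lay below both WT libraries. The exons of Nmb and St8sia6 overlap those of other genes, so their counts are uncertain.

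Besides Impdh2 and Impdh2-ps, Ckap4 and Sfrp2 fell at R40D3, and their R0D3 levels were not all within 2.05 CPM. Ckap4, a membrane protein of the endoplasmic reticulum, had 102 and 101 CPM in the WT libraries and 75.9 and 68.6 CPM in the LysM-cKO libraries (log2 fold change −0.49, SE 0.07, edgeR adjusted p 0.0476). Sfrp2, a secreted Wnt modulator made by fibroblasts, had 4.45 and 1.22 CPM in the WT libraries and 0.740 and 0.246 CPM in the LysM-cKO libraries (log2 fold change −2.50, SE 0.34, edgeR adjusted p 0.0355). Sfrp2 is a gene of low level whose exons overlap those of another gene. Ckap4 did not fall at R0D3, with 74.5 and 65.8 CPM in WT and 76.2 and 66.9 CPM in LysM-cKO. Sfrp2 was at 4.19 and 1.31 CPM in WT and 1.38 and 0.485 CPM in LysM-cKO at R0D3. Marker genes of stromal fibroblasts were mostly lower at R40D3 as well, but not in step with Sfrp2. Their summed level over 18 genes was 2985 and 3068 CPM in WT and 2620 and 922 CPM in LysM-cKO, with LysM-cKO replicate 2 apart from the others. In pair 1 Sfrp2 went from 4.45 to 0.740 CPM, while the stromal sum went from 2985 to 2620 CPM. Of 17 stromal markers tested, 16 were lower, 14 of them with an unadjusted p under 0.05 (background for lower genes 9.67%). Of the 17, 0 were called by edgeR and 2 by DESeq2. Their part in the fall of Sfrp2 was not tested.

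**Figure D2:**
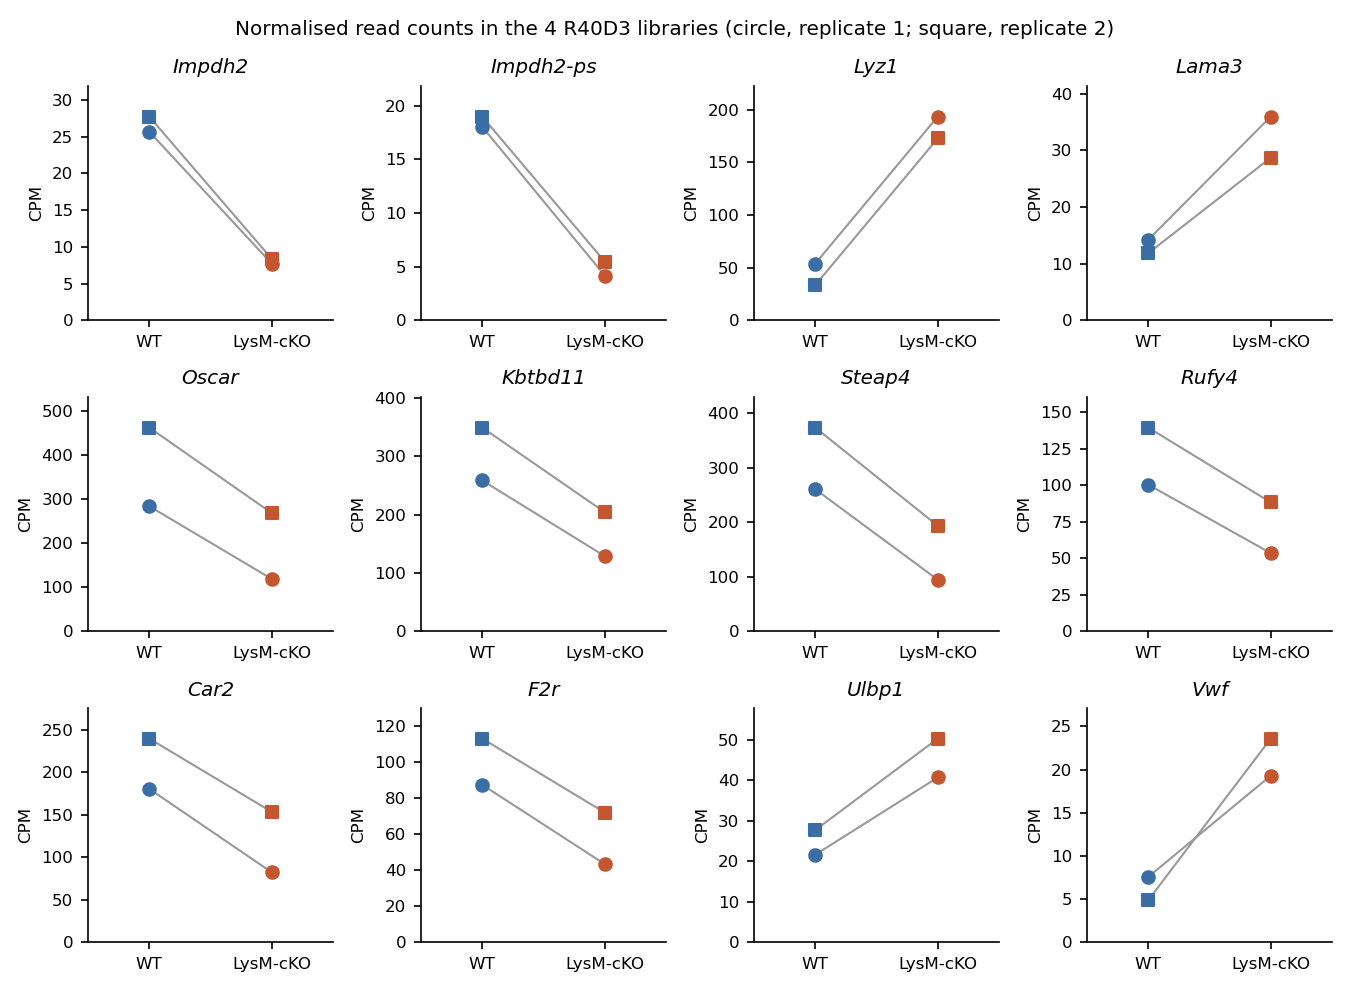
Normalised counts (CPM, linear axes from 0) of 12 called genes in the 4 R40D3 libraries. Circles are replicate 1, squares replicate 2, and grey lines join a pair. Both lines go down for Impdh2 (from 25.7 and 27.7 to 7.72 and 8.38 CPM) and 7 other genes and up for Lyz1, Lama3, Ulbp1 and Vwf, and in Oscar, Kbtbd11, Steap4, Rufy4, Car2 and F2r replicate 2 lies above replicate 1 in each genotype.

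The promoters of the called genes were searched on both strands for the AP-1 motif TGAGTCA (its reverse complement is TGACTCA), to which Fos-containing dimers bind, and for the E-box CACGTG, which reads the same on both strands. RefSeq promoters (GRCm38.p6, 250 bases before to 50 after the start) were found for 23 of the 30 called genes. The AP-1 letters were present in 2 of 9 promoters of genes that fell, F2r and Rufy4, and in 0 of 14 of those that rose. They were present in 4.73% of the 10201 tested genes in the table and in 5.95% of all 27025. The E-box was present in 1 of 9 (Impdh2) and in 1 of 14 (Pgm2l1), against 11.7% of tested genes. The 250 bases before the start of F2r (chr13:95618467-95618716, minus strand) and of Rufy4 (chr1:74125291-74125540, plus strand) are shown because they hold the AP-1 letters, in capitals, which begin 204 and 41 bases before the start.
F2r: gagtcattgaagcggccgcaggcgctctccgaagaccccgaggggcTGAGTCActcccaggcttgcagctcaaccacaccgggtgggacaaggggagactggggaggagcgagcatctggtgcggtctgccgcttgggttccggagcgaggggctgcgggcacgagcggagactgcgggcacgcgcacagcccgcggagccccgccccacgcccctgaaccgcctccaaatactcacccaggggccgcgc
Rufy4: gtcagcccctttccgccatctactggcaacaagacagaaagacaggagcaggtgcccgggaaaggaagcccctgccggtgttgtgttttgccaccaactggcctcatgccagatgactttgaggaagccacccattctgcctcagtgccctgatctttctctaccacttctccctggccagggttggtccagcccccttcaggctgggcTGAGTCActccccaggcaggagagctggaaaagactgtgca
These matches describe letters in a window and are not evidence of binding.

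The genes that rose had other roles. Lama3, the alpha chain of a basement membrane laminin, had 14.2 and 11.8 CPM in the WT libraries and 35.96 and 28.7 CPM in the LysM-cKO libraries. It rose with a log2 change of 1.31 (SE 0.12, edgeR adjusted p 0.00603), and its exons overlap those of another gene. Vwf, the clotting protein of endothelial cells and megakaryocytes, was at 7.58 and 4.89 CPM against 19.3 and 23.6 CPM (log2 fold change 1.78, SE 0.24, edgeR adjusted p 0.0355). The summed markers of both cell types went the other way within each pair. The endothelial list summed to 17.0 and 6.78 CPM in WT and 10.6 and 4.37 CPM in LysM-cKO. The megakaryocyte list summed to 184 and 108 CPM against 154 and 93.2 CPM. Nearly all of the megakaryocyte sum was Pf4, at 178 and 106 CPM against 152 and 91.7 CPM. At R0D3 the megakaryocyte sum was higher in LysM-cKO, at 268 and 228 CPM against 199.6 and 175.5 CPM in WT.

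Several immune genes were among the rises. Ulbp1, a ligand of the natural killer cell receptor NKG2D, had 21.7 and 27.7 CPM in the WT libraries and 40.7 and 50.3 CPM in the LysM-cKO libraries (log2 fold change 0.89, SE 0.09, edgeR adjusted p 0.0089). Alox5, the lipoxygenase that starts leukotriene synthesis, was at 21.9 and 19.1 CPM against 38.7 and 31.5 CPM (log2 fold change 0.78, edgeR adjusted p 0.0265). The inhibitory receptor gene Havcr2 was at 26.2 and 24.1 CPM against 43.7 and 42.8 CPM (log2 fold change 0.78, edgeR adjusted p 0.0429). In each of these 3 genes the groups did not overlap and both pairs rose by similar amounts. Ighm, the immunoglobulin mu heavy chain, was at 15.8 and 14.8 CPM against 29.1 and 29.0 CPM (log2 fold change 0.92, SE 0.11, edgeR adjusted p 0.022). Ighm is itself a B cell marker. The list of 10 such markers, Ighm included, summed to 79.8 and 50.3 CPM in WT and 86.5 and 60.9 CPM in LysM-cKO. Most of this sum was Cd22 and Ighm, so its rise is not separate from that of Ighm. Cd22 was lower within each pair, at 56.5 and 31.4 CPM against 51.8 and 29.0 CPM. Of 5 B cell markers tested, 3 were higher, Ighm among them, and 2 lower.

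The other rises were in genes expressed in every library. Ahnak, a very large scaffold protein, had 1013 and 739 CPM in the WT libraries and 1526 and 1332 CPM in the LysM-cKO libraries (log2 fold change 0.72, SE 0.09, edgeR adjusted p 0.0247). Rnf128, a ubiquitin ligase, was at 126 and 126 CPM against 201 and 204 CPM (log2 fold change 0.68, edgeR adjusted p 0.0247). Pgm2l1, which makes the sugar cofactor glucose bisphosphate, was at 62.2 and 66.9 CPM against 112 and 106 CPM (log2 fold change 0.76, edgeR adjusted p 0.0196). The groups stood clear of each other in all 3. Mfsd6, Mtmr10, Abcg3, Plscr4 and the long noncoding RNA Dubr rose as well, with log2 fold changes of 0.56, 0.49, 0.63, 1.09 and 0.85. The exons of Mtmr10 and Dubr overlap those of other genes. Several genes that rose were at a higher level in WT at R0D3 than in WT at R40D3. Rnf128 was at 216 and 260 CPM in WT at R0D3. Ighm was at 36.1 and 41.7 CPM in WT at R0D3. Others, such as Alox5 and Lyz1, were lower in WT at R0D3. For the rises too, a different mix of cells and a change of RNA per cell cannot be told apart in bulk libraries.

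The last 2 genes called higher, Alb and Apoa2, are plasma proteins of the liver, and nearly all of their reads are in replicate 1. Alb had 36.8 and 0.061 CPM in the WT libraries and 128 and 0 CPM in the LysM-cKO libraries, and Apoa2 had 4.65 and 0 CPM against 19.3 and 0.062 CPM. The groups overlapped in both genes. A list of 18 hepatocyte genes, chosen after these values were seen, summed to 86.4 and 0.55 CPM in WT and to 298 and 0.123 CPM in LysM-cKO. At R0D3 it summed to 52.3 CPM in WT replicate 1 and 58.9 CPM in LysM-cKO replicate 1, and to at most 0.497 CPM in replicate 2. The log2 fold change of Alb of 1.78 (edgeR adjusted p 0.0196) turned to −2.08 without WT replicate 1 and to −2.31 without LysM-cKO replicate 1. Leaving the list out gave 28 calls.

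**Figure D3:**
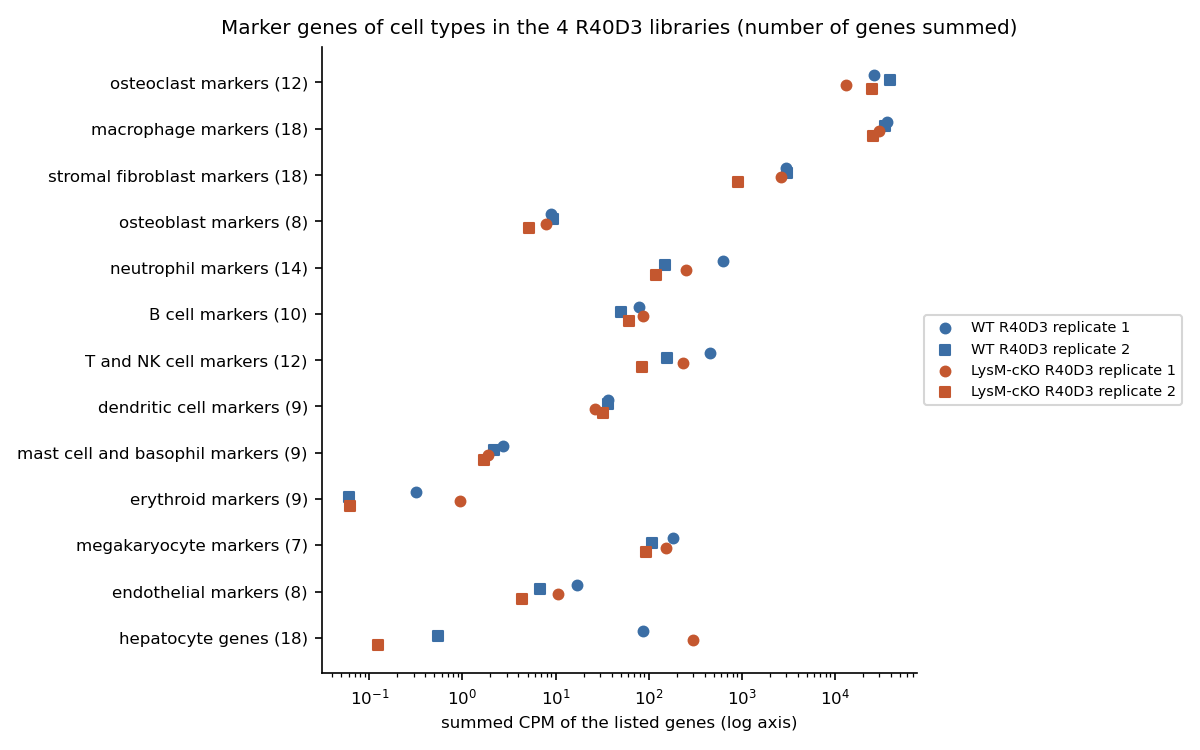
Summed CPM (log axis) of marker lists in the 4 R40D3 libraries, with the number of genes summed in brackets. Blue is WT, red LysM-cKO, circles are replicate 1 and squares replicate 2. The osteoclast list is lowest in LysM-cKO replicate 1, the stromal list is lowest in LysM-cKO replicate 2 (922 CPM), and the hepatocyte list is above 80 CPM only in replicate 1.

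The osteoclast markers were abundant in all R40D3 libraries and lower in LysM-cKO within each pair. The 12 markers summed to 26620 and 39170 CPM in WT and to 13390 and 25140 CPM in LysM-cKO, against 407 to 541 CPM in the R0D3 libraries, which carry the same osteoclast label. The sums of WT replicate 1 and LysM-cKO replicate 2 lie close together, so the genotypes separate more within a pair than across pairs. All 12 markers had log2 fold changes below 0, against 51.6% of all genes tested. Their median was −0.68, against −0.01 over all genes tested, and 2 were called, Oscar and Car2. Without LysM-cKO replicate 1 the median was −0.29, and without LysM-cKO replicate 2 it was −1.09. The markers of macrophages, the precursors, were split, with 9 of 18 higher and a median of −0.03 (0.13 without LysM-cKO replicate 2). Their sum was lower within each pair, at 36290 and 35100 CPM in WT and 30010 and 26030 CPM in LysM-cKO. Its largest member was Lyz2, at 18949 and 20334 CPM in WT and 11773 and 11302 CPM in LysM-cKO.

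By role, the genes of resorption and acid secretion had fitted log2 fold changes below 0 throughout. They include the osteoclast markers Acp5, Ctsk, Mmp9, Calcr, Atp6v0d2 and Car2, so their values are not separate from those of the markers. Of 20 listed, 19 were tested, all 19 were below 0, 11 with an unadjusted p under 0.05 (background for lower genes 9.67%), and 1 was called, Car2 (DESeq2 called 4 and limma-voom 2, all lower). The median log2 fold change was −0.46, with −0.70 in pair 1 and −0.33 in pair 2, and it moved to −0.21 or −0.72 when LysM-cKO replicate 1 or 2 was left out. Calcr, the calcitonin receptor, had 89.4 and 122 CPM in the WT libraries and 52.4 and 85.5 CPM in the LysM-cKO libraries (edgeR adjusted p 0.0717), and it was at 0 in all R0D3 libraries. Snx10, a sorting nexin needed for resorption, was at 961 and 1300 CPM against 583 and 922 CPM (edgeR adjusted p 0.112). Of the secreted proteases, cathepsin K (Ctsk) was at 7453 and 11631 CPM against 3760 and 7367 CPM (edgeR adjusted p 0.389), and Mmp9 at 10540 and 14178 CPM against 5057 and 9072 CPM (edgeR adjusted p 0.339). Both were lower in each pair, but the spread over the 8 libraries was large and neither passed.

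The fusion genes, among them the osteoclast markers Dcstamp, Ocstamp and Atp6v0d2, did not move as 1 group. Of 15 tested, 9 were higher and 6 lower, with a median of 0.05 that was −0.06 without LysM-cKO replicate 2. Of the 15, 0 were called by edgeR, DESeq2 or limma-voom. An unadjusted p under 0.05 was found in 9 (background in either direction 18.5%). Ocstamp, a transmembrane fusion protein, had 163 and 219 CPM in the WT libraries and 90.7 and 154 CPM in the LysM-cKO libraries (edgeR adjusted p 0.0678). Slc9b2, a sodium-proton exchanger, was at 426 and 601 CPM against 230 and 397 CPM (edgeR adjusted p 0.119). The tetraspanin Cd81 was on the other side, at 152 and 159 CPM against 203 and 190 CPM (edgeR adjusted p 0.107). Ocstamp and Slc9b2 were nearly silent at R0D3 (at most 3.9 CPM), while Cd81 was not.

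Upstream of these, transcriptional activators had a median of −0.20, with 13 of 19 lower and 0 called by edgeR. An unadjusted p under 0.05 was found in 9 (background in either direction 18.5%), and DESeq2 called 1, Mef2a. Nfatc1, the main transcription factor of osteoclast formation, had 413 and 479 CPM in the WT libraries and 287 and 382 CPM in the LysM-cKO libraries (log2 fold change −0.42, SE 0.13, edgeR adjusted p 0.17). Pparg was also lower (edgeR adjusted p 0.133) and Mef2a higher (edgeR adjusted p 0.0979), with no overlap of the groups. Among 10 repressors of the program 6 were higher, with a median of 0.06 (−0.03 without WT replicate 2). Zeb2, a repressor among them, was at 427 and 390 CPM in the WT libraries against 492 and 460 CPM in the LysM-cKO libraries (edgeR adjusted p 0.159). None of the activators and repressors passed in edgeR.

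In the receptor signalling lists Oscar was the 1 gene called by edgeR. The ITAM costimulation list had 11 of 17 members higher, a median of 0.05 (−0.003 without LysM-cKO replicate 2), with Oscar called lower. Siglec15, a sialic acid receptor that also uses an ITAM adaptor, had 56.3 and 77.8 CPM in the WT libraries and 33.2 and 52.6 CPM in the LysM-cKO libraries (log2 fold change −0.66, edgeR adjusted p 0.0512). Pira2 was at 17.9 and 18.4 CPM against 24.4 and 28.8 CPM (edgeR adjusted p 0.11). The RANK and NF-kappaB list had a median of −0.07 with 14 of 22 lower (0.02 without LysM-cKO replicate 1). The gene for RANK itself, Tnfrsf11a, was at 150 and 175 CPM against 121 and 156 CPM (log2 fold change −0.23, edgeR adjusted p 0.241), with overlapping groups. Nfkbia, an inhibitor of NF-kappaB, was at 186 and 244 CPM against 123 and 190 CPM (edgeR adjusted p 0.0971). The podosome and adhesion list had 16 of 24 lower and a median of −0.13 (−0.002 if LysM-cKO replicate 1 is left out). Scin, an actin-severing protein, was at 157 and 197 CPM against 92.1 and 143 CPM (edgeR adjusted p 0.0746), and it had at most 0.0575 CPM at R0D3.

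**Figure D4:**
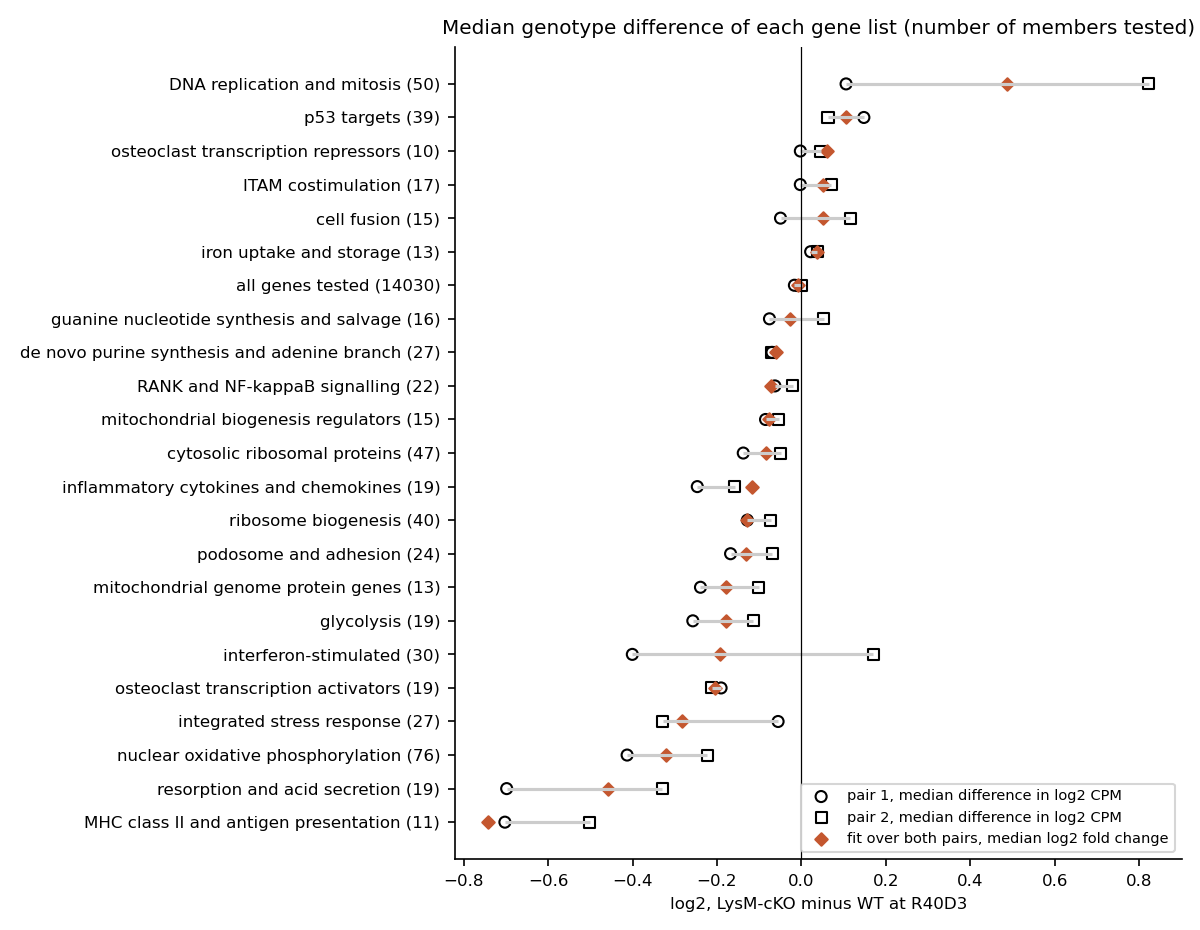
Median genotype difference of each pathway list at R40D3 (log2, LysM-cKO minus WT), with the number of members tested in brackets. Open circles and squares are the medians of the within-pair differences of pairs 1 and 2, and red diamonds the medians of the fitted log2 fold changes. The resorption list lies at −0.46, DNA replication and mitosis at 0.49 with pairs far apart, and all genes tested at −0.01.

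Mitochondrial genes were lower together by small amounts. All 76 nuclear genes of oxidative phosphorylation had log2 fold changes below 0, against 51.6% of all genes tested, with a median of −0.32. An unadjusted p under 0.05 was found in 64 of the 76 (background for lower genes 9.67%). By edgeR 0 of them were called, by limma-voom 0 and by DESeq2 14, all lower. The DESeq2 calls over all genes, given under the dependence on processing, are the background for the 14. Both LysM-cKO libraries lay below both WT libraries in 16 of the 76, against 18.9% of all genes tested, so the lower level is seen within pairs and not as a gap between groups. The median was −0.41 in pair 1 and −0.22 in pair 2, and −0.18 without LysM-cKO replicate 1. Uqcrq, a subunit of complex III, had 137 and 194 CPM in the WT libraries and 92.1 and 148 CPM in the LysM-cKO libraries (log2 fold change −0.48, edgeR adjusted p 0.0761). Atp5d, a subunit of ATP synthase, was at 227 and 284 CPM against 162 and 224 CPM (edgeR adjusted p 0.0761). The 13 protein genes of the mitochondrial genome had a median of −0.18 with 12 lower, the regulators of mitochondrial biogenesis −0.08, and glycolysis genes −0.18 with 15 of 19 lower. At R0D3 the nuclear list had a median of −0.07, and 25 of its members had an unadjusted p under 0.05 for the difference between the R40D3 and R0D3 effects, against 5.99% of all genes tested. No member passed that test after adjustment in edgeR, DESeq2 or limma-voom. Osteoclast markers were lower in the same LysM-cKO libraries, and their part in the mitochondrial values was not tested.

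The lists of nucleotide metabolism had medians near that of all genes tested. The guanine nucleotide list had 9 of 16 lower, a median of −0.03 (0.08 without WT replicate 1), and 1 called, Impdh2. Gda, a guanine deaminase, had 54.1 and 35.7 CPM in the WT libraries and 78.6 and 70.9 CPM in the LysM-cKO libraries (log2 fold change 0.74, edgeR adjusted p 0.118), and Guk1, a guanylate kinase, was at 17.6 and 19.8 CPM against 12.7 and 16.3 CPM (edgeR adjusted p 0.163). The list of purine synthesis and the adenine branch had 19 of 27 lower, a median of −0.06 and 0 called by edgeR. An unadjusted p under 0.05 was found in 7 (background in either direction 18.5%), and 1 was called by DESeq2. Ribosome biogenesis genes had a median of −0.13 with 30 of 40 lower, and ribosomal protein genes −0.08 with 43 of 47 lower. In these lists 7 and 4 members, all lower, had an unadjusted p under 0.05 (background 9.67% for lower genes, 18.5% in either direction). EdgeR, DESeq2 and limma-voom called 0. Targets of p53 had a median of 0.11 (0.18 without WT replicate 2) with 27 of 39 higher and 0 called by edgeR (DESeq2 called 3, all higher), and 14 of the higher ones had an unadjusted p under 0.05 (background 8.86%). Zmat3, an RNA-binding p53 target, was at 66.2 and 72.7 CPM against 96.3 and 92.1 CPM (edgeR adjusted p 0.0702), and the cell cycle inhibitor Cdkn1a at 206 and 189 CPM against 263 and 298 CPM (edgeR adjusted p 0.101).

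Genes of DNA replication and mitosis were higher, mostly in pair 2. Of 50 tested, 47 were above 0 (48.4% of all genes tested were), with a median of 0.49. Of the 50, 0 were called by edgeR and 3 by DESeq2, all higher. An unadjusted p under 0.05 was found in 20 (background in either direction 18.5%). Both LysM-cKO libraries lay above both WT libraries in 24 of the 50, against 19.7% of all genes tested. The median was 0.11 in pair 1 and 0.82 in pair 2, 0.08 without WT replicate 2 and 0.92 without WT replicate 1. Mki67, a marker of dividing cells, had 45.9 and 32.5 CPM in the WT libraries and 66.5 and 103 CPM in the LysM-cKO libraries (edgeR adjusted p 0.122). Ccnb2, a mitotic cyclin, was at 5.23 and 8.49 CPM against 8.51 and 25.4 CPM (edgeR adjusted p 0.0862). LysM-cKO replicate 2, the highest library for both genes, is also the one with the low stromal sum, whose part was not tested. At R0D3 the list had a larger median of 0.84.

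Among the remaining lists Steap4 was the one gene called by edgeR. MHC class II and antigen presentation genes had a median of −0.74 with 8 of 11 lower (−0.25 without WT replicate 1), and it was −0.73 at R0D3. DESeq2 called 5 of them, all lower. H2-Ab1, a class II beta chain, had 43.1 and 36.6 CPM in the WT libraries and 19.5 and 21.2 CPM in the LysM-cKO libraries (log2 fold change −0.98, edgeR adjusted p 0.0678). The integrated stress response list had a median of −0.28 with 20 of 27 lower (−0.10 without WT replicate 2), and its central factor Atf4 was at 126 and 174 CPM against 103 and 139 CPM (edgeR adjusted p 0.135). Its member Vldlr, a lipoprotein receptor, lay on the other side, with 6.59 and 7.57 CPM against 18.5 and 19.5 CPM (log2 fold change 1.43, edgeR adjusted p 0.0678), and it was the 1 gene of the list that DESeq2 and limma-voom called. Interferon-stimulated genes had a median of −0.40 in pair 1 and 0.17 in pair 2, so the pairs differed in sign (fitted median −0.19, and 0.32 without WT replicate 1). Cytokine and chemokine genes had a median of −0.12 (−0.30 if WT replicate 2 is left out, −0.004 if WT replicate 1 is), and iron genes 0.04, with Steap4 called lower. Neutrophil markers were lower in 12 of 13 tested with sums of 624 and 149 CPM in WT and 251 and 120 CPM in LysM-cKO, so WT replicate 1 was the high library. Of the T and NK cell markers only Cd4 was tested, and it carried nearly all of their sum of 453 and 157 CPM in WT and 235 and 85.6 CPM in LysM-cKO, while Cd3g, Trbc1, Trbc2 and Gzma were at 0 in all 4. Erythroid markers summed to under 1 CPM in each library.

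The R0D3 cultures were set beside the R40D3 values to ask whether the genotype difference depended on the culture. At R0D3, 3 genes passed (0.0214%), Impdh2, Impdh2-ps and Lyz1. Of the 30 genes called at R40D3, 25 had the same sign at R0D3, although several were too low there to compare. The share over all genes tested is not given here, so no agreement between cultures is read from this count. Lama3 was at 51.9 and 42.4 CPM in WT and 78.2 and 49.9 CPM in LysM-cKO at R0D3. Its log2 fold change there was 0.42, and that of Ighm was 0.06. Both genes were called by their R40D3 values (1.31 and 0.92). That choice favours smaller values at R0D3, so the sizes are not compared. The difference between the R40D3 and R0D3 effects was tested directly: 0 genes passed by edgeR, the smallest adjusted p was 0.578, and 841 had an unadjusted p under 0.05 (5.99%). By edgeR no gene was therefore shown to differ in its genotype effect between the cultures, while DESeq2 called 6 and limma-voom 0 for the same test.

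**Figure D5:**
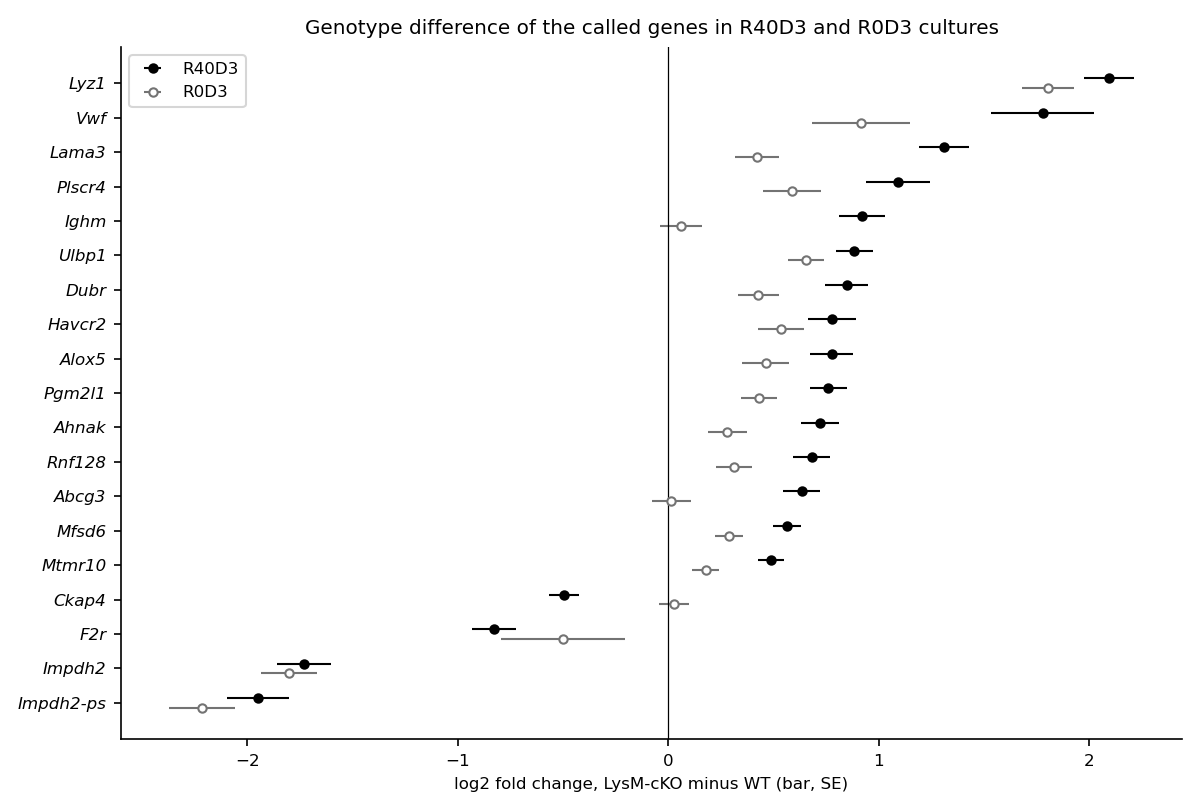
Log2 fold changes (LysM-cKO minus WT, bars are SE of the fit) of the 19 called genes with at least 1 CPM in every R0D3 library, at R40D3 (filled) and R0D3 (open). The values lie on the same side of 0 for 18 of the 19 genes, with no share over all genes beside this count. Since the genes were chosen by their R40D3 values, the sizes at R40D3 and R0D3 are not compared.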

How the data were processed

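RNA sequencing counts of 8 mouse culture libraries were used, 4 titled R40D3 and 4 titled R0D3. The deposited values are unnormalised counts for 55401 Ensembl genes, which the authors gave in 1 table for each replicate number. The submitters' processing notes name FastQC 0.11.2, Trimmomatic 0.36, HISAT2 2.1.0, DESeq2 1.12.4 and GRCm38. The counter, its annotation and whether strand was used are not given in the sources used here, so genes with overlapping exons or near-identical copies are uncertain. Of the identifiers, 99.5% matched a symbol. Positions and transcripts are from GENCODE M21 (GRCm38).

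The R40D3 libraries held 19221865 and 16507851 counts (WT replicates 1 and 2) and 18412495 and 16009146 counts (LysM-cKO). The labels name no molecular identifiers, and without them counting error understates the spread. Replicates differed by more than sampling noise (chi-square per degree of freedom 19.8 in WT and 30.2 in LysM-cKO), so none was treated as a repeat deposit of another. This does not show that they are separate biological samples.

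Counts were tested in R 4.3.3 with edgeR 4.0.16 (TMM scaling, filterByExpr, quasi-likelihood test with legacy = FALSE, two-sided, Benjamini-Hochberg over the 14030 genes kept, called at an adjusted p under 0.05). One model with group means and the replicate number as a block was fitted to all 8 libraries, which share the estimate of the spread. Contrasts were LysM-cKO minus WT at R40D3, the same at R0D3, and their difference. SE was derived from the F statistic (size of the log2 change over the root of F). Within-pair differences used log2 CPM with a prior count of 2. The pairing rests on the labels, which put each number in a table of its own, and on the correlation of same-numbered deviations from group means (r from 0.343 to 0.609 over 6 pairs of groups). The second principal component (18.6% of the variance) separated the numbers.

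The genes named are Impdh2, Impdh1, all called genes, and of each list members among the 3 with the smallest p. Others (Lyz2, the hepatocyte genes and further markers) were chosen after their values were seen. Some genes that the rule names are not reported here. The comparison and the 22 pathway and 12 cell type lists were chosen with earlier results of these data known, and lists are described by counts and medians with no test. Alternatives were other normalizations, filters, libraries, DESeq2 1.42.0 and limma-voom (limma 3.58.1). On simulated counts the scripts were tested before use. The forelimb libraries of the series were not used here.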

Additional observations from a re-analysis of the deposited data

How the results depend on the processing

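The count of 30 calls at R40D3 (17 higher, 13 lower) changed with the pairing, the tool and single libraries. With no replicate block it was 2 (0 higher, 2 lower), and with the R40D3 libraries alone and no replicate block 0, where Impdh2 kept −1.72 (edgeR adjusted p 0.579). With the R40D3 libraries alone and the replicate block it was 42 (15 higher, 27 lower), with library size alone 41 (29 higher, 12 lower), and with the stricter filter (5 CPM in 2 libraries) 20 (13 higher, 7 lower). DESeq2 gave 181 calls (87 higher, 94 lower, 26 shared with the 30), 58 at R0D3 and 6 for the difference between cultures. Limma-voom gave 73 (34 higher, 39 lower), among them all 30. These totals over all genes are the background for the DESeq2 and limma-voom counts of each list. Leaving out 1 R40D3 library, or 1 pair as an alternative chosen after seeing the data, gave 1 to 20 calls, 1 to 4 higher and 0 to 16 lower, and 1 to 6 at R0D3. Impdh2 then ranged from −1.75 to −1.70, with edgeR adjusted p 0.101 without pair 2 and 0.27 without pair 1. Over the same settings Alb ran from −3.18 to 1.79 and turned its sign in 3. Lyz1 passed in 14 of 16 alternatives and Impdh2 in 11. Of 1944 values of named genes under the alternatives, 1623 kept their direction and side of the threshold, 241 dropped below it, 58 rose past it, 3 called values reversed and 19 uncalled values changed sign. Why these values moved was not tested, beyond the fewer samples that an omitted library leaves. At 1 count a gene has 0.0523 to 0.0616 CPM in an R40D3 library.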

Other observations

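Some genes with large differences missed the threshold and belong to no list, and they were picked after their values were seen. Slc15a2, a peptide transporter, had 14.5 and 9.41 CPM in the WT R40D3 libraries and 3.70 and 0.801 CPM in the LysM-cKO libraries (log2 change −2.44, edgeR adjusted p 0.0625), and at R0D3 14.1 and 8.58 CPM against 3.85 and 0.485 CPM. Mgl2, a lectin of macrophages and dendritic cells, had 34.2 and 17.0 CPM against 14.9 and 9.80 CPM (edgeR adjusted p 0.0533). Axl, a receptor tyrosine kinase for the clearance of dead cells, had 97.2 and 75.7 CPM against 61.7 and 30.8 CPM (edgeR adjusted p 0.0678). In these 3 genes both LysM-cKO libraries lay below both WT libraries. The receptor tyrosine kinase gene Ephb6 lay on the other side, with 1.26 and 1.10 CPM against 3.23 and 5.36 CPM (edgeR adjusted p 0.0674).

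A further 3 genes outside the lists, also picked after their values were seen, missed the threshold. Spns2, an exporter of a lipid signal, had 82.3 and 115 CPM in WT and 44.0 and 74.05 CPM in LysM-cKO (edgeR adjusted p 0.058). Arsb, a lysosomal sulfatase, had 1080 and 1564 CPM against 533 and 1039 CPM (edgeR adjusted p 0.0674). Msln, the gene of mesothelin, had 37.7 and 93.0 CPM against 14.1 and 51.8 CPM (edgeR adjusted p 0.0625), with overlapping groups and no counts in any R0D3 library.

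Replicate number went with large differences that both genotypes shared. Fos had 66.9 CPM in WT replicate 1 and 276 CPM in WT replicate 2, and 50.2 and 277 CPM in the same order in LysM-cKO. Egr1 had 16.7 and 127 CPM in WT and 14.7 and 100 CPM in LysM-cKO. The scavenger receptor gene Marco had 6.07 and 20.3 CPM in WT and 9.41 and 23.3 CPM in LysM-cKO. The transcript AI506816 went the other way, with 72.1 and 1.59 CPM in WT and 31.8 and 1.73 CPM in LysM-cKO.

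Gapdh, a gene with many near-identical copies, had 4.45 to 5.25 CPM in the R40D3 libraries.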
